A study of Mus musculus with 6 samples.

Results

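The slit diaphragm is the cell junction that bridges the foot processes of podocytes, the epithelial cells that wrap the capillaries of the glomerulus. The 9 genes described here encode proteins of that junction or of the foot process membrane and its signalling, namely Nphs1, Kirrel1, Cd2ap, Magi2, Trpc6, Ptpro, Podxl, Thsd7a and Plce1. They were taken by name from the table of 57132 gene rows, and all 9 were among the 19927 genes tested. Kirrel1 is listed there under its other symbol, Kirrel. RNA was sequenced from isolated mouse glomeruli, 3 libraries labelled Cre-/Setdb2fl/fl (Cre_negative) and 3 labelled Cre+/Setdb2fl/fl (Cre_positive). Both groups carry floxed Setdb2 alleles and both are labelled as diabetic kidney disease. The comparison asks what podocyte SETDB2, a putative histone methyltransferase, does in that disease. The sources used here do not give the diabetes model, the Cre line, the age of the mice or whether each library is 1 mouse. The p-values therefore reflect the spread among these libraries, part of which may be technical.

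In the slit diaphragm, nephrin (Nphs1) and NEPH1 (Kirrel1) are immunoglobulin-type adhesion proteins whose outer parts meet between neighbouring foot processes and whose tails carry signals to the actin skeleton. CD2AP and MAGI2 are scaffolds beneath that junction, TRPC6 is a calcium channel and PLCE1 is a phospholipase. Podocalyxin (Podxl) is the negatively charged sialomucin of the free foot process surface, and PTPRO, also called GLEPP1, is a receptor tyrosine phosphatase there. THSD7A lies at the foot process membrane and is known in human membranous nephropathy as an autoantigen. Inherited loss of NPHS1, CD2AP, MAGI2, PTPRO or PLCE1 function, or mutations of TRPC6, are known causes of human nephrotic disease.

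The libraries held 53571438 to 58807042 counts, of which the 9 genes took 0.0489% to 0.0629%. Setdb2, the floxed gene, had 591, 492 and 370 counts in the Cre_negative and 427, 444 and 391 in the Cre_positive libraries, so the groups overlapped (adjusted p = 0.738 in edgeR's quasi-likelihood test), and whole-gene counts from all glomerular cells do not check the labels. Cre_positive replicate 2 stood apart in Xist, the X-inactivation RNA, with 24 counts where the others had at least 36474. For single genes described below as called per library in edgeR, the fit without that library is given or lies in a stated range. Some other results, among them ratios between genes and fits with other tools, were not repeated without that library. Podocyte markers were present throughout: none of 14 (transcription factors such as Wt1 and Lmx1b among them) was at 0 in any library. Tubule RNA was abundant as well. The summed level of 10 proximal tubule markers was 7714 to 9107 CPM (counts scaled to a common library total) in Cre_negative and 12213 to 13442 CPM in Cre_positive libraries. The 14 podocyte markers summed to 1035 to 1276 CPM and 1579 to 1616 CPM.

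Promoter sequence is shown for the genes that passed the test, Thsd7a, Magi2 and Cd2ap, and for Nphs1, the core gene that did not. Each is the 250 bases before a RefSeq transcription start in GRCm38.p6, 5′ to 3′ on the gene's strand. Capitals mark the letters GCGTGGG, of the type bound by EGR factors and by the podocyte factor WT1, or TAATTA, of the LIM homeodomain type to which LMX1B belongs, on either strand. For Magi2 the table holds a pair of starts, given as windows a and b. The windows are chr6:12749254-12749503 on the minus strand for Thsd7a, chr5:19226796-19227045 and chr5:19907268-19907517 on the plus strand for Magi2, chr17:42876425-42876674 on the minus strand for Cd2ap and chr7:30459808-30460057 on the plus strand for Nphs1.
Thsd7a: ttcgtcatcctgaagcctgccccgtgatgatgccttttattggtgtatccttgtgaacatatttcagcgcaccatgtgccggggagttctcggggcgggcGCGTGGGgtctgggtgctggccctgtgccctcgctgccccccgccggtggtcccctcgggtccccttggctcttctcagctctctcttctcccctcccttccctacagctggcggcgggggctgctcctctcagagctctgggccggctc
Magi2 window a: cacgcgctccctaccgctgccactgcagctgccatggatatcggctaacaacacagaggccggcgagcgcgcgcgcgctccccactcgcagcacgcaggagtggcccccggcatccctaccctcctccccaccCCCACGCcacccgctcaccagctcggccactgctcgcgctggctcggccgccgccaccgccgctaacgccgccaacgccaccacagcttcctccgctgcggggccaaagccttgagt
Magi2 window b: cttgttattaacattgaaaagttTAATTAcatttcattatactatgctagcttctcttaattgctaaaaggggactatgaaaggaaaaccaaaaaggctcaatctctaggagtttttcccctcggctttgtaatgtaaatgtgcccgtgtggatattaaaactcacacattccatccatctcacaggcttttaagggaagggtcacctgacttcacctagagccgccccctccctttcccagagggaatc
Cd2ap: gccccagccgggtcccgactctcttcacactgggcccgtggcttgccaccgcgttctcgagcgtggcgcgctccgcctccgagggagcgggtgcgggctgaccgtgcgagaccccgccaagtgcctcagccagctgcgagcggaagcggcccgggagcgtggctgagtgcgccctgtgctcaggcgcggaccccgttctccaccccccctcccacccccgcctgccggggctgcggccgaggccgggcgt
Nphs1: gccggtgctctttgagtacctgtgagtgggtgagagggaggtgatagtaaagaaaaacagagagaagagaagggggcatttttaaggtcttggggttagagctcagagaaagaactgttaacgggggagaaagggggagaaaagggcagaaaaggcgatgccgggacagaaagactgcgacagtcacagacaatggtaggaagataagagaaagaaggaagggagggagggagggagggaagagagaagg

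Of the 8 genes with a window in the RefSeq table, Thsd7a and Magi2 (window a) held GCGTGGG, which 4.3% of all 32851 windows of that length hold. TAATTA was found in Magi2 window b, and 4.84% of all windows hold it. The SMAD palindrome GTCTAGAC was in none of the members' windows, where 0.167% of all windows hold it. The windows of Cd2ap and Magi2 (a) were rich in CpG, with 31 and 29 CpG sites, Kirrel1 had 24 and Thsd7a 15, against a median of 6 over all windows. The Nphs1 window had 5 CpG sites and the Ptpro window 3. Podxl had no entry in that table.

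Of the 9 genes, 2 rose in Cre_positive glomeruli (Thsd7a and Magi2), 1 fell (Cd2ap) and 6 stayed above the threshold, an adjusted p of 0.05 from the edgeR quasi-likelihood fit. Over all genes tested, 7.55% passed, 3.73% as higher and 3.82% as lower. The libraries of the groups did not overlap for 7 of the 9, with 6 higher and 1 lower in Cre_positive, against 29.7% of all genes. The median log2 fold change of the 9 was 0.25, against -0.00089 over all genes. In bulk tissue, fewer podocytes and less RNA per podocyte cannot be told apart, and neither can their opposites. CPM values are TMM-scaled, errors are SD with n = 3, and fold changes are Cre_positive over Cre_negative.

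**Figure D1:**
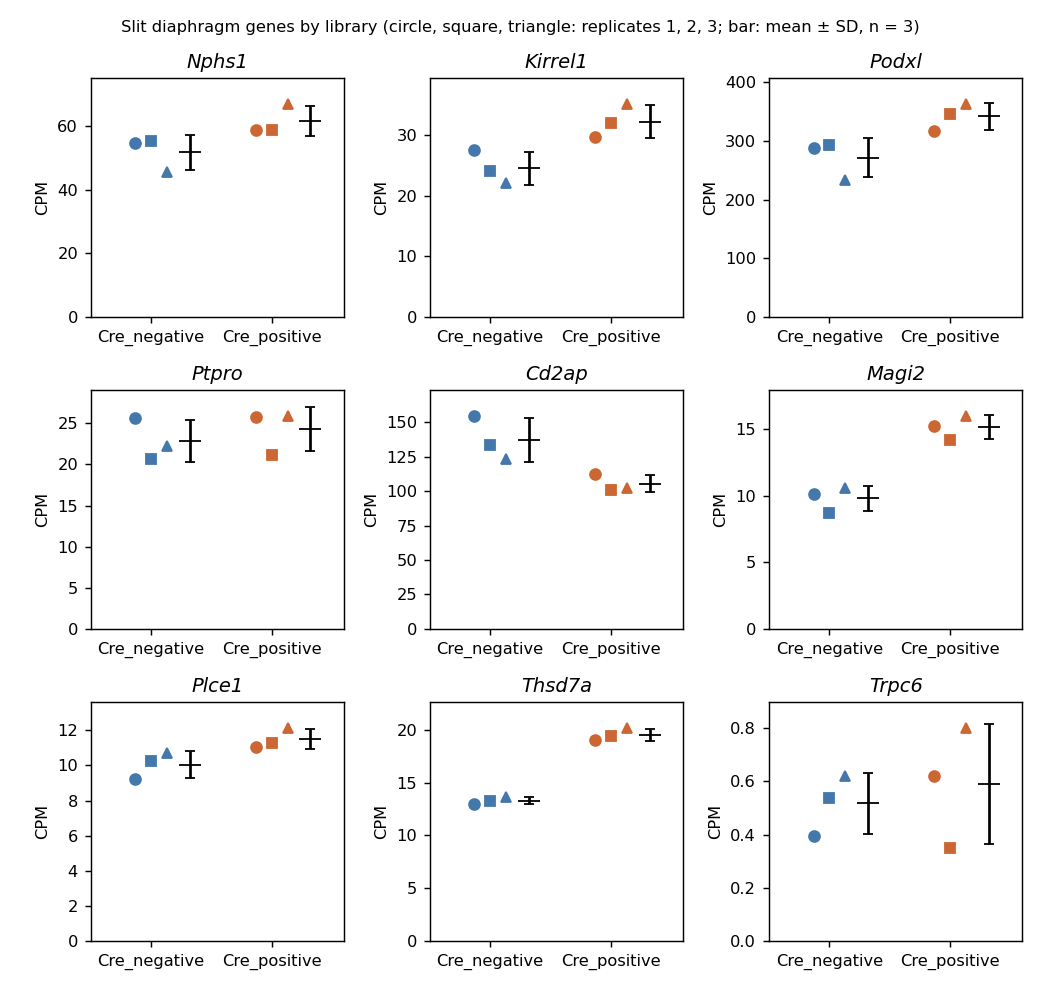
Level of each of the 9 genes in CPM (vertical axes from 0) in every library, with circle, square and triangle for replicates 1, 2 and 3 and the black bar for mean ± SD (n = 3). Thsd7a and Magi2 stand above and Cd2ap below the Cre_negative libraries, whereas Ptpro and Trpc6 overlap.

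Among the adhesion proteins, nephrin and its partner NEPH1 were measured slightly higher without passing the test. Nphs1 (ENSMUSG00000006649, chromosome 7) had 54.5, 55.3 and 45.4 CPM in Cre_negative replicates 1, 2 and 3 and 58.8, 58.9 and 67.0 CPM in the Cre_positive ones. The groups did not overlap, but the gap between the highest Cre_negative and the lowest Cre_positive library was small beside the spread within each group. The log2 fold change was 0.25 (SE 0.097, 95% confidence interval 0.03 to 0.47) with an adjusted p of 0.162 in edgeR's test. Kirrel1 (ENSMUSG00000041734, chromosome 3) had 27.5, 24.1 and 22.1 CPM against 29.6, 32.0 and 35.1 CPM. Every Cre_positive library was again above every Cre_negative one, with a log2 fold change of 0.39 (SE 0.11, interval 0.15 to 0.64) and an adjusted p of 0.0631. Kirrel1 passed with DESeq2 (adjusted p = 0.0229) and, in edgeR, without Cre_negative replicate 1 (0.0360). It did not pass in edgeR without any other 1 library (adjusted p of 0.0940 to 0.224, and 0.160 without Cre_positive replicate 2). With the replicate number as a block the adjusted p was 0.102.

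The processed pseudogene Rps12-ps4, annotated on the opposite strand over an exon of Nphs1, had its own 516 to 962 counts per library, against 2556 to 3593 counts for Nphs1. The sources used here do not say whether counting used strand, so reads of the pair may not be fully separable. The antisense transcript Nphs1os had 4 to 13 counts.

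Of the surface proteins of the foot process, Thsd7a rose, Podxl was measured higher without passing and Ptpro differed little. Thsd7a (ENSMUSG00000032625, chromosome 6) had 13.0, 13.3 and 13.7 CPM in Cre_negative and 19.1, 19.4 and 20.2 CPM in Cre_positive libraries, which is a mean of 13.3 ± 0.347 against 19.5 ± 0.580 CPM (SD, n = 3). These were the tightest replicates of the 9 genes, with coefficients of variation of 2.61% and 2.97%, and the groups were well apart. The rise was 1.47-fold, with a log2 fold change of 0.55 (SE 0.096, interval 0.34 to 0.77) and an adjusted p of 0.0122 in edgeR's test. The call ended without Cre_positive replicate 2 (log2 fold change 0.56, adjusted p = 0.0525) and without Cre_positive replicate 3 (0.53, adjusted p = 0.0707).

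Podxl (ENSMUSG00000025608, chromosome 6) had 288, 292 and 233 CPM against 317, 346 and 363 CPM. Its log2 fold change of 0.33 (SE 0.10, interval 0.10 to 0.57) did not pass at an adjusted p of 0.0896 in edgeR's test, though DESeq2 gave 0.0256. In edgeR, Podxl did not pass without any 1 library either (adjusted p of 0.0956 to 0.279, and 0.227 without Cre_positive replicate 2). Ptpro (ENSMUSG00000030223, chromosome 6) had 25.6, 20.6 and 22.2 CPM against 25.7, 21.2 and 25.9 CPM, and the groups overlapped almost fully. Its log2 fold change was 0.09 (SE 0.12) with an interval of -0.18 to 0.36 and an adjusted p of 0.714. Podxl, Ptpro and Thsd7a lie on the same chromosome.

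The scaffolds beneath the junction went opposite ways. Magi2 (ENSMUSG00000040003, chromosome 5), an inverted membrane-associated guanylate kinase with several PDZ domains, had 10.1, 8.73 and 10.6 CPM in Cre_negative and 15.2, 14.2 and 16.0 CPM in Cre_positive libraries. All Cre_positive libraries were above all Cre_negative ones. The rise was 1.54-fold, with a log2 fold change of 0.63 (SE 0.13, interval 0.34 to 0.91) and an adjusted p of 0.0210 in edgeR's test. The call ended without Cre_negative replicate 2 (adjusted p = 0.0577) and without Cre_positive replicate 1 (0.0761), 2 (0.0602) or 3 (0.104).

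Cd2ap (ENSMUSG00000061665, chromosome 17), an adaptor that links nephrin to actin and to PI3-kinase signalling and that many other cell types also express, had 154, 133 and 123 CPM in Cre_negative and 112, 101 and 102 CPM in Cre_positive libraries. It was the only member whose Cre_positive libraries were all lower. It fell to 0.769 of the Cre_negative level, with a log2 fold change of -0.38 (SE 0.093, interval -0.59 to -0.17) and an adjusted p of 0.0438 in edgeR's test. The call ended without Cre_negative replicate 1 (log2 fold change -0.28, adjusted p = 0.0835) or 2 (adjusted p = 0.0782), and without Cre_positive replicate 1 (0.0820), 2 (0.156) or 3 (0.167). It also ended with robust=FALSE in the dispersion fit (adjusted p = 0.0513). Tubule markers moved with the genotype, as given above, and their part in the Cd2ap difference was not tested.

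The signalling members were low in these libraries and did not pass. Plce1 (ENSMUSG00000024998, chromosome 19) had 9.20, 10.2 and 10.7 CPM against 11.0, 11.3 and 12.1 CPM. Its groups did not overlap, but the log2 fold change of 0.19 (SE 0.13) had an interval of -0.09 to 0.48 and an adjusted p of 0.408 in edgeR's test. Trpc6 (ENSMUSG00000031997, chromosome 9) had 24, 30 and 35 counts in Cre_negative and 33, 20 and 43 counts in Cre_positive libraries, which is 0.395 to 0.622 CPM and 0.351 to 0.801 CPM. Its log2 fold change of 0.19 (SE 0.46) had an interval of -0.85 to 1.23, which is 0.554 to 2.34 times the Cre_negative level (adjusted p = 0.852). A change of Trpc6 within that range could not be told from none.

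Levels were compared between genes only per kilobase, as CPM divided by the length of all annotated exons. Podxl led in both groups, with 49.4 ± 5.99 CPM per kilobase in Cre_negative and 62.3 ± 4.25 in Cre_positive (SD, n = 3). In Cre_negative, Cd2ap (8.64 ± 1.00) and Nphs1 (7.82 ± 0.830) followed and their libraries overlapped. In Cre_positive, Nphs1 (9.30 ± 0.707) stood above Cd2ap (6.64 ± 0.393) in every library. Ptpro (3.39 ± 0.381) and Kirrel1 (3.29 ± 0.366) overlapped in Cre_negative, and in Cre_positive they were at 3.61 ± 0.398 and 4.32 ± 0.371. Thsd7a and Magi2 came next, at 0.969 ± 0.0253 and 0.865 ± 0.0849 in Cre_negative and at 1.42 ± 0.0422 and 1.33 ± 0.0798 in Cre_positive, where their libraries overlapped. Plce1 followed at 0.628 ± 0.0483 and 0.718 ± 0.0356, and Trpc6 was lowest at 0.102 ± 0.0226 and 0.117 ± 0.0447.

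The order of Cd2ap and Nphs1 depended on the gene model, because the annotated exons of Cd2ap add up to 15.9 kb and its principal transcript to 5.36 kb. Per kilobase of principal transcript, Cd2ap was above Nphs1 in both groups, at 25.5 ± 2.96 against 11.2 ± 1.19 CPM per kilobase in Cre_negative and 19.6 ± 1.16 against 13.4 ± 1.02 in Cre_positive (SD, n = 3). Kirrel1 then stayed below Ptpro in both groups on the mean, while the places of the other 5 genes were unaltered. The lengths come from GENCODE M21, which is on GRCm38 and not on the GRCm39 of the submitters' processing notes.

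**Figure D2:**
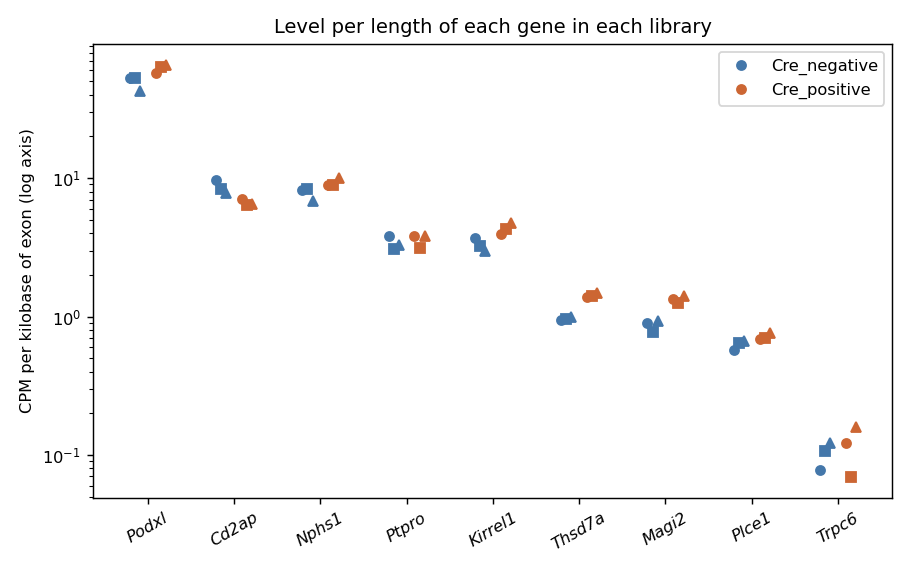
Level of each gene in CPM per kilobase of annotated exon on a log axis, 1 point per library (circle, square and triangle for replicates 1, 2 and 3; blue Cre_negative, orange Cre_positive). The genes run from Podxl, at 49.4 in Cre_negative on average, to Trpc6 at 0.102.

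Ratios within a library show how the members kept to each other, since depth cancels. Podxl per Nphs1 (CPM over CPM) was 5.28, 5.29 and 5.14 in Cre_negative and 5.39, 5.88 and 5.42 in Cre_positive libraries, with a coefficient of variation over all 6 of 4.71%, the smallest of the 9 ratios computed. Its groups did not overlap either, with the Cre_positive mean 1.06 times the Cre_negative one (exact p = 0.1, 0.225 adjusted over the 9 ratios). Kirrel1 per Nphs1 was 0.504, 0.435 and 0.486 against 0.504, 0.543 and 0.525, which overlapped. Thsd7a per Magi2 was 1.28, 1.52 and 1.29 against 1.25, 1.36 and 1.26, which overlapped as well.

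The scaffold Cd2ap stood apart from nephrin. Cd2ap per Nphs1 was 2.83, 2.41 and 2.72 in Cre_negative and 1.91, 1.71 and 1.53 in Cre_positive libraries, 0.648 times as high on the mean, and the groups were well separated. The two-sided exact permutation test on log2 ratios gave p = 0.1, the smallest that 3 against 3 libraries allow, and 0.225 adjusted over the 9 ratios. Magi2 per Nphs1 was 0.186, 0.158 and 0.233 against 0.259, 0.241 and 0.239, and Thsd7a per Nphs1 was 0.238, 0.240 and 0.301 against 0.324, 0.329 and 0.301, where the closest libraries nearly met (exact p = 0.1 for both).

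Podocyte markers outside the 9 genes were also higher in Cre_positive libraries, so each member was set against them. Of 14 such markers (among them Wt1, Synpo, Lmx1b, Foxd2, Foxc2, Cdkn1c, Npnt, Clic3, Nes, Dach1, Tcf21, Col4a3 and Col4a4), 3 rose, 0 fell and 11 did not pass in edgeR (DESeq2 called 7 and limma voom 6), and the median log2 fold change was 0.42. Over all 19927 genes tested, 743 rose and 762 fell in edgeR, and DESeq2 called 2697 and limma voom 1649. The edgeR count of the 14 markers was 1 without Cre_positive replicate 2 or 3 and 6 without Cre_negative replicate 3. Among all genes these fits called 605, 462 and 2039. With the summed counts of these markers as library size, the median of all genes moved to -0.52, 0 of the 9 members were higher and 2 were lower. Over all genes 1.10% were then higher and 50.9% lower, so the members were called lower no more often than genes in general. Cd2ap was one of them. Per 1000 marker counts it had 144, 129 and 96.7 counts in Cre_negative and 69.6, 62.8 and 64.9 in Cre_positive libraries, which gave -0.90 on the log2 scale (SE 0.15) and an adjusted p of 0.00141 in edgeR's test. Relative to the median of all genes that is -0.39, against -0.38 per library.

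Ptpro, level per library, was the other, with 23.8, 19.9 and 17.4 counts per 1000 marker counts against 15.9, 13.2 and 16.4, which gave -0.43 on the log2 scale (SE 0.15) and an adjusted p of 0.0325. That value lies 0.09 above the median of all genes, as it does per library. Its call ended without any 1 library except Cre_negative replicate 3 (adjusted p up to 0.152), whereas that of Cd2ap held without each of the 6 (adjusted p at most 0.0102). This scaling called 50.9% of all genes lower. Per library, the Cd2ap call ended without any 1 library except Cre_negative replicate 3. For Thsd7a and Magi2, which rose per library, the difference per marker count was close to 0, where the median of all genes was -0.52. Relative to the median of all genes in each fit, they were at 0.56 and 0.64, against 0.56 and 0.63 per library. Thsd7a had 12.1, 12.8 and 10.7 counts per 1000 marker counts against 11.8, 12.04 and 12.8, a log2 fold change of 0.04 with an interval of -0.27 to 0.35. Magi2 had 9.43, 8.44 and 8.28 against 9.42, 8.82 and 10.1, a log2 fold change of 0.12 with an interval of -0.22 to 0.46. For Nphs1 the log2 fold change per marker count was -0.28 (interval -0.61 to 0.06), for Kirrel1 -0.13 (-0.47 to 0.21) and for Podxl -0.19 (-0.56 to 0.17), and none of these passed in edgeR. With limma voom Nphs1 was called lower per marker count (-0.35, adjusted p = 0.0352), and Kirrel1 and Podxl were not called. The sign of Nphs1, Kirrel1 and Podxl was the reverse of that per library, as the shift of all genes by -0.52 makes it for any gene with a small positive value. Without Cre_negative replicate 3, in which the marker sum was highest of its group, Nphs1 (-0.44, adjusted p = 0.00466) and Podxl (-0.36, adjusted p = 0.0102) were called lower per marker count as well, where 55.3% of all genes were lower and 1.43% higher.

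The marker sum is carried mostly by Npnt, Col4a3 and Col4a4, so the fit was repeated with the geometric mean of the 14 markers, in which each weighs the same (chosen after the data were seen). There the median of all genes was -0.33. Cd2ap remained lower, at -0.71 (SE 0.10, adjusted p = 0.00200), and was the only call among the 9, where 35.9% of all genes were lower and 1.82% higher. Relative to the median of all genes it was again at -0.38. Magi2 was at 0.30 (interval 0.01 to 0.58, adjusted p = 0.0938), Thsd7a at 0.23 (interval -0.0032 to 0.46, adjusted p = 0.109) and Ptpro at -0.24 (adjusted p = 0.133). Podxl was at 0.00 (interval -0.24 to 0.25). The fit per geometric mean was not repeated with single libraries left out.

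**Figure D3:**
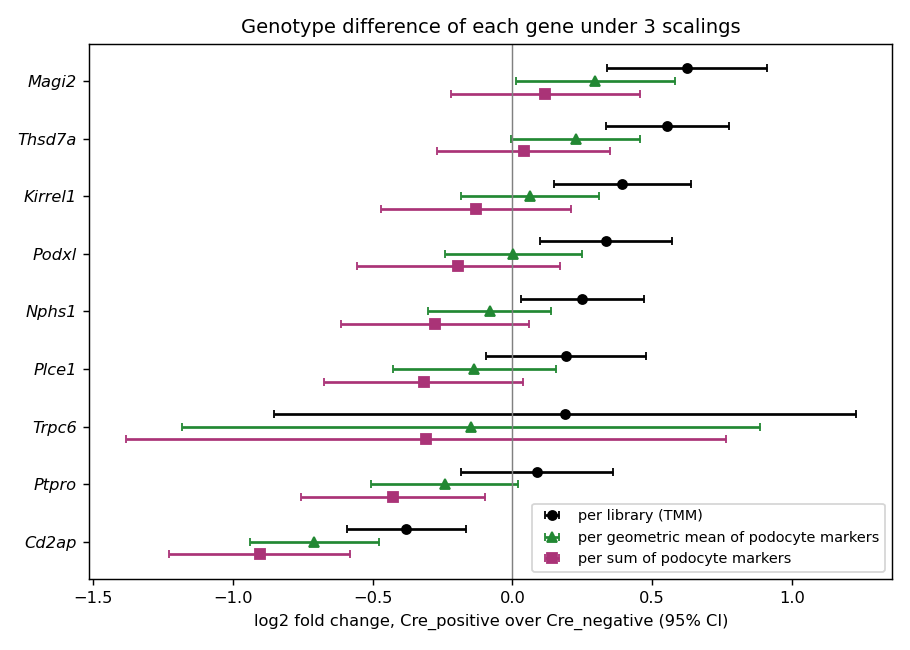
Log2 fold change of each gene with its 95% confidence interval, per library (black circles), per geometric mean of 14 podocyte markers (green triangles) and per sum of these markers (purple squares). Cd2ap is below 0 under all 3 scalings, and Thsd7a and Magi2 move from 0.55 and 0.63 per library to 0.04 and 0.12 per marker sum. The median of all genes moves as well, to -0.33 per geometric mean and -0.52 per marker sum. The shift between scalings is therefore not particular to these genes.

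The other genes of the nephrin complex and its junction mostly did not pass. Of 12 genes (among them Kirrel2, Kirrel3, Fat1, Tjp1, Magi1, Iqgap1, Nck1, Nck2, Fyn, Pik3r1 and Plcg1), 2 rose, 0 fell and 10 did not pass, with a median log2 fold change of 0.08. Among all genes tested, 3.73% rose and 3.82% fell. Without Cre_negative replicate 2, 2 of the list rose and 1 fell, against 477 and 551 of all genes. Pik3r1, the regulatory PI3-kinase subunit that nephrin and CD2AP recruit, had 68.9, 61.3 and 76.2 CPM against 104, 105 and 102 CPM. Its groups were far apart, its log2 fold change was 0.59 (SE 0.086) at an adjusted p of 0.00584, and it passed without any 1 library (adjusted p at most 0.0328). The call ended per podocyte marker sum, at 0.09 on the log2 scale (adjusted p = 0.545), and per sum of podocyte, endothelial and mesangial markers, at 0.11 (adjusted p = 0.336). Relative to the median of all genes, Pik3r1 was at 0.60 under both scalings, against 0.59 per library. Magi1, the close relative of Magi2, was at 31.1 ± 1.79 and 31.3 ± 2.15 CPM.

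Of 6 genes of the apical and PAR polarity complexes (Crb2, Pard3, Pard6b, Pard6g, Prkci and Prkcz), 1 rose (against 3.73% of all genes tested) and 5 did not pass, with a median of 0.18. The one was Prkcz, the atypical protein kinase C zeta gene, with 77.2, 79.4 and 83.1 CPM against 96.5, 93.2 and 96.9 CPM. Its rise was 0.26 on the log2 scale (SE 0.064, adjusted p = 0.0448). Its call ended when any Cre_positive library was left out (adjusted p up to 0.169), without Cre_negative replicate 1 or 2 (0.101) and with the replicate number as a block (0.0709). Per podocyte marker sum its sign was the reverse, at -0.26. Relative to the median of all genes, Prkcz was at 0.26 there, as it was per library. The kinase is known in tubule cells too.

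Of 10 genes of the podocalyxin complex and other foot process membrane proteins (Ezr, Nherf1, Nherf2, Clic5, Pdpn, Dag1, Pla2r1, Enpep, Itga3 and Itgb1), 0 passed, and the median was -0.03. At an unadjusted p under 0.05 there were 2 in edgeR, and DESeq2 called 2 and limma voom 0 after adjustment. Over all 19927 genes tested these counts were 4683, 2697 and 1649. Without Cre_negative replicate 2 the edgeR count was 1, and without Cre_negative replicate 3 it was 2, against 1028 and 2039 of all genes. Pla2r1, the other known autoantigen gene of human membranous nephropathy besides THSD7A, had the smallest p. It had 13.7, 12.7 and 18.4 CPM against 21.98, 21.3 and 19.9 CPM. Its log2 fold change was 0.50 (SE 0.15) and its adjusted p 0.0772. It passed with DESeq2 (0.0226) and, in edgeR, without Cre_negative replicate 3 (0.0109). Without any other 1 library it did not pass in edgeR (adjusted p of 0.171 to 0.209, and 0.199 without Cre_positive replicate 2).

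Of 8 genes around TRPC channels and calcineurin, the phosphatase that calcium entry activates (among them Trpc5, Ppp3ca, Ppp3cb, Ppp3r1, Nfatc1, Nfatc3 and Rcan1), 7 were tested, 1 fell (against 3.82% of all genes tested) and 6 did not pass, with a median of -0.06. Without Cre_negative replicate 3, 1 of the list rose and 1 fell, against 987 and 1052 of all genes. Trpc5 had at most 20 counts in a library. Rcan1, a calcineurin inhibitor gene that NFAT factors induce, had 134, 256 and 168 CPM against 69.0, 67.9 and 80.1 CPM. It fell by 1.36 on the log2 scale (SE 0.23, adjusted p = 0.0207), with widely spread Cre_negative libraries, and the call ended when any Cre_positive library was left out (adjusted p up to 0.0838). None of the 3 calcineurin subunit genes passed.

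Many markers of other cell types of the isolate were higher in Cre_positive libraries too. Of 10 glomerular endothelial markers 7 rose (median 0.57), of 8 mesangial markers 3 rose (0.43), of 10 proximal tubule markers 5 rose (0.62) and of 6 distal nephron markers 4 rose (0.54), with none called lower in these lists. Over all genes tested, 3.73% rose and 3.82% fell. Without Cre_positive replicate 2 the endothelial count was 5, the mesangial 3, the proximal tubule 5 and the distal nephron 3. The proximal tubule count was 2 without Cre_positive replicate 3, and without Cre_negative replicate 3 it was 7 higher and 1 lower. The mesangial and distal nephron counts were each 2 without Cre_positive replicate 1 or 3. Calls over all genes changed too, from 1505 to 700, 605 and 462 without Cre_positive replicate 1, 2 and 3. Without Cre_negative replicate 3 they were 2039. Of 6 parietal epithelial markers 1 fell (median -0.12), and of 7 macrophage markers 1 fell (-0.86). Neither call held without Cre_positive replicate 1, 2 or 3, nor did the parietal one without Cre_negative replicate 1 or 3. Without Cre_negative replicate 2 there were 2 parietal and 3 macrophage markers lower. The summed macrophage level was 164 to 296 CPM in Cre_negative and 158 to 172 CPM in Cre_positive libraries, and the summed endothelial level 646 to 787 and 963 to 1056 CPM. Mesangial markers summed to 250 to 266 and 327 to 352 CPM, parietal markers to 389 to 466 and 452 to 458 CPM, and distal nephron markers to 5869 to 7217 and 9391 to 10010 CPM. The endothelial, mesangial and both tubule sums did not overlap between the groups, whereas the parietal and macrophage sums did. The part of any of these in the members' differences was not tested.

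**Figure D4:**
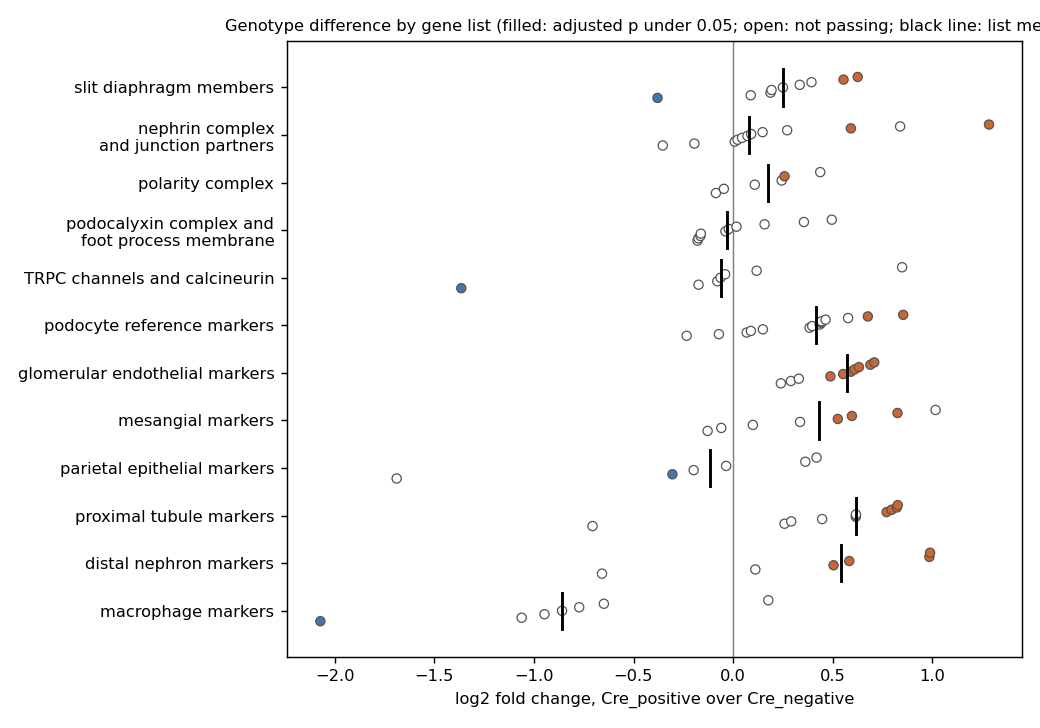
Log2 fold change of every tested gene by list, 1 point per gene, filled where the adjusted p was under 0.05 (orange higher, blue lower in Cre_positive), with the list median as a black line. The 9 slit diaphragm genes have a median of 0.25, below the 0.42 of the podocyte reference markers.

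Likeness of pattern to Nphs1 was measured over the 6 libraries. Among 10612 tested genes of at least average log2 CPM 3 with an assigned symbol, the highest Pearson correlations of log2 CPM were those of Tada1 (0.990), Acsm2 (0.989), Nhsl2 (0.983) and Top2b (0.983). The points share the genotype groups and the library scaling. These genes were picked as the highest of 10612 over only 6 libraries. Their likeness is a description, and a link to Nphs1 was not tested. Tada1, a subunit gene of a transcriptional coactivator complex, had 15.5, 15.6 and 12.8 CPM against 16.8, 17.0 and 18.3 CPM, with the low Cre_negative replicate 3 and the high Cre_positive replicate 3 that Nphs1 had. Acsm2, an acyl-CoA synthetase gene of the proximal tubule, had 919, 931 and 727 CPM against 1080, 1108 and 1352 CPM. None of these 4 passed the test of the genotypes (smallest adjusted p = 0.0663).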

How the data were processed

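Poly(A)-selected, strand-marked libraries from glomerular RNA were sequenced as read pairs, per the labels' protocols. The authors deposited 1 table of raw read counts, with a column per library and a row per Ensembl gene. Tools named in the submitters' processing notes are fastp, HISAT2, StringTie and edgeR, with the build GRCm39. Which annotation was used, whether counting respected strand and how multiply mapped reads were handled is not stated there. The deposited counts went unaltered into edgeR 4.0.16 under R 4.3.3 (filterByExpr, TMM, quasi-likelihood test with robust=TRUE, Benjamini-Hochberg over 19927 genes, threshold 0.05). Standard errors are the log2 fold change over the square root of F, and intervals are at 95%. No pair of libraries agreed within sampling noise (chi-square per degree of freedom of at least 20.6 over genes with 50 or more counts). Symbols came from a table that covered 51880 rows, and all 106 list genes matched. Named were the 9 members, from each other gene list up to 3 genes by smallest p among those that passed (else the one with the smallest p), and the 5 genes most like Nphs1. Not every gene taken by this rule is reported, and of the cell type marker lists other than podocyte only counts, medians and sums are given. The members, lists and motifs were chosen with earlier results of these data known. The fit was tested on simulated counts. Alternatives were RLE and upper-quartile factors, DESeq2 1.42.0, limma 3.58.1 voom, robust=FALSE, other filters and thresholds, a replicate block, scaling by marker genes, and each library left out. Single-gene intervals cover the spread between libraries as well as counting error, and Trpc6 had the fewest counts of the 9 genes.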

Additional observations from a re-analysis of the deposited data

How the results depend on the processing

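Of all genes, 1505 passed (2697 with DESeq2, 414 at an adjusted p of 0.01, 2562 at 0.10, and 462 to 2039 when single libraries were left out, lowest without Cre_positive replicate 3). Of the 9 slit diaphragm genes 3 passed, 5 with DESeq2 (Thsd7a, Magi2, Kirrel1 and Podxl higher, Cd2ap lower), 0 at an adjusted p of 0.01, 5 at 0.10, and 1 per geometric mean of podocyte markers. With single libraries left out the count ran from 0 to 3. It was 1 without Cre_negative replicate 2 or Cre_positive replicate 1, and 0 in edgeR without Cre_positive replicate 2 or 3, where 6 and 5 had an unadjusted p under 0.05. Over all genes, 3797 and 3567 had an unadjusted p under 0.05 in those fits. Of the other slit diaphragm and foot process genes 4 passed, 7 with DESeq2, and 2 to 7 with single libraries left out (2 without any 1 of the Cre_positive libraries, 7 without Cre_negative replicate 3). Per podocyte marker sum 2 members passed, 1 with the geometric mean, and 1 to 4 with single libraries left out. With limma voom, Nphs1 was called lower per marker sum besides Cd2ap and Ptpro.

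Scaling by marker genes shifts all genes by nearly the same amount (the median of all genes by -0.52, -0.49 and -0.33), so small positive values change sign by construction, and the changes below are not particular to these genes. The log2 fold changes per podocyte marker sum, and then per sum of podocyte, endothelial and mesangial markers, were -0.28 and -0.24 for Nphs1, -0.13 and -0.10 for Kirrel1, -0.31 and -0.28 for Trpc6, -0.43 and -0.40 for Ptpro, -0.19 and -0.16 for Podxl, -0.32 and -0.29 for Plce1, -0.26 and -0.22 for Prkcz, and -0.080 and -0.048 for Synpo. Pla2r1 was at -0.00067 per podocyte marker sum. Per geometric mean they were -0.081 for Nphs1, -0.15 for Trpc6, -0.24 for Ptpro, -0.14 for Plce1 and -0.070 for Prkcz. Trpc6 ranged from -0.10 to 0.45 with single libraries left out, and the cause was not tested. Thsd7a, Magi2 and Cd2ap kept their sign under all 17 other settings. These do not include the fits per podocyte marker sum with single libraries left out. There Thsd7a was at -0.028 without Cre_negative replicate 3.

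Same-numbered libraries of the groups deviated together only weakly (correlations of 0.055, 0.055 and 0.017), although each library correlated best with its own number. The labels do not say whether the numbers mark pairs, and this was not tested. With the replicate block 1541 genes, 3 members and 3 of the other slit diaphragm genes passed, and per podocyte marker sum 2 members. Trpc6 had the fewest counts of the 9, 20 to 43 per library, and its interval holds both counting error and the spread between libraries.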
